A study of Mus musculus with 4 samples.

Results

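A set of 7 autosomal genes whose messenger RNA was sharply lower in 1 of 3 embryonic stem cell (ESC) lines is described here, over all 12 of their probe sets on Affymetrix mouse arrays. They are Calml4, Dpys, Accsl, Spink1, Rragd, Apoa2 and Rab3gap2, 7 of 18193 measured genes. The genes were chosen by their measured levels on the array of line 3 against the other 3 arrays. Their difference there is therefore a description, and it was not tested. The series held 4 arrays. One measured Adeno-1, a clone of induced pluripotent stem cells (iPSC) made from mouse tail-tip fibroblasts with adenoviral vectors. The other 3 carried RNA of ESC lines, NT-1, NT-2 and NT-3 (lines 1, 2 and 3), derived from cloned blastocysts after transfer of nuclei of that clone (NT-ESC). All cells grew with serum and LIF on irradiated embryonic fibroblast feeders, which were depleted by a short preplating before lysis. The labels give 1 clone, call the lines subclones of it, and name no strain, sex, passage or separate derivation. Each line had 1 array, so a difference of line 3 cannot be told apart from a difference of its array.

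The genes have unlike functions. Calml4 encodes a calmodulin-like protein of the microvillar brush border. Dpys encodes dihydropyrimidinase, which opens the ring of dihydrouracil and dihydrothymine in pyrimidine breakdown, and Accsl is named for its likeness to the plant ACC synthases. Spink1 encodes a secreted Kazal inhibitor of trypsin and Apoa2 an apolipoprotein of high-density lipoprotein, both best known from pancreas and liver. Rragd encodes the small GTPase RagD, which as a dimer with RagA or RagB brings mTORC1 to the lysosome when amino acids are plentiful. Rab3gap2 encodes the noncatalytic subunit of the Rab3 GTPase-activating complex, which also activates Rab18.

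Start-site windows from RefSeq (assembly GRCm38.p6, 250 bases before to 50 after a start) were used for 5 of the 7 genes. The first listed for each is shown, since these genes were low together while the Rab3gap2 window was far richer in CpGs than the rest. CpG dinucleotides are in capitals, and each sequence runs 5′ to 3′ on the gene's strand. The Calml4 window lies at chr9:62857854-62858153 on the plus strand, that of Accsl at chr2:93930433-93930732 on the minus strand, Rragd at chr4:32982748-32983047 on the plus strand, Apoa2 at chr1:171224804-171225103 on the plus strand and Rab3gap2 at chr1:185203918-185204217 on the plus strand. No window of Dpys or Spink1 is shown.
Calml4: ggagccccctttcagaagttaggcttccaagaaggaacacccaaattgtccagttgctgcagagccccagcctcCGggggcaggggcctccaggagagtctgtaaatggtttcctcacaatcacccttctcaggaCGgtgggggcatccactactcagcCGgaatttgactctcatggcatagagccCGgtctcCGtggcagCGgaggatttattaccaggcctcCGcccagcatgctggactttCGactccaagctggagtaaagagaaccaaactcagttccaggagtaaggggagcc
Accsl: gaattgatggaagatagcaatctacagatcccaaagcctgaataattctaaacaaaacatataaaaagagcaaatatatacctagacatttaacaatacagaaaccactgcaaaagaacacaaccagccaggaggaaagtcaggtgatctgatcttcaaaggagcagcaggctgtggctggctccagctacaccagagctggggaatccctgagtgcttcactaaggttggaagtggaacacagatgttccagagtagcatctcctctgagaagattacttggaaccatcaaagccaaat
Rragd: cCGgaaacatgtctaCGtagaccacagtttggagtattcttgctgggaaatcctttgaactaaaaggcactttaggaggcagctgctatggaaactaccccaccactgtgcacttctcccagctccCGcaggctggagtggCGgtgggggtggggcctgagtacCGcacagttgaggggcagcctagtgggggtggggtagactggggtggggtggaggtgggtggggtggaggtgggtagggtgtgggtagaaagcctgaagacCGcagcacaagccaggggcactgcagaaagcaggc
Apoa2: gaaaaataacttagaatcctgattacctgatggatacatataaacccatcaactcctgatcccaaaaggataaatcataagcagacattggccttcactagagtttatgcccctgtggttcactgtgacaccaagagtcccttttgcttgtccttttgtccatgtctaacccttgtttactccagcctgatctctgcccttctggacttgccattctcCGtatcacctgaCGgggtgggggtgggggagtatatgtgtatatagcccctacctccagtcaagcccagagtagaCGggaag
Rab3gap2: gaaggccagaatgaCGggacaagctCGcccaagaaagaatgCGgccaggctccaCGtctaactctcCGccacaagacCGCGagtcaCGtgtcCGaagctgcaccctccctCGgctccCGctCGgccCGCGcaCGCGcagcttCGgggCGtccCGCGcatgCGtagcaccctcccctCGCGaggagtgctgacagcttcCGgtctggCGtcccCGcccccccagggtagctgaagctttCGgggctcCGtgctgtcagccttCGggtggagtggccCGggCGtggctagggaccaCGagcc

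The Rab3gap2 window was CpG-rich, with 32 CpGs and an observed over expected CpG ratio of 0.902, higher than in 87.3% of the windows of 27025 genes. The expected number is the count of C times the count of G over the length. Calml4 had 8 CpGs (ratio 0.332), Rragd 6 (0.246), Apoa2 3 (0.183) and Accsl 0, against a median ratio of 0.389 over all genes. Calml4, Rragd, Apoa2 and Accsl thus lay under that median, and Rab3gap2 alone of the 5 lay above it. Whether the genes share a CpG class was not tested. Motifs were searched on both strands in the same windows. TATAAA was found in Accsl and Apoa2 and in 14.2% of all windows. CCAAT was found in Apoa2 and in 37.9%. GGGCGG was found in Calml4 and Rab3gap2 and in 35.9%, and CACGTG, which like GGGCGG contains a CpG, was found in Rab3gap2 and in 7.24%. ATGCAAAT was found in none of the 5 and in 1.75% of all. No motif occurred in more than 2 of the 5 windows. The table lists 2 further windows for Accsl and 1 for Apoa2, whose CpG ratios were 0.112, 0.271 and 0.0487. The series holds no measurement of DNA methylation or factor binding.

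Levels below are log2 intensities on a scale on which the mean of each array is set to an assumed 7, since the deposited table holds only ratios to that mean. Fold changes scale with this choice. They are ratios of measured intensities with no background taken off, since the table holds no detection calls. For a gene whose signal in line 3 is background, the fold at a given mean is therefore a lower bound. None of the 7 genes was shown to lie above background there, and Apoa2 and Rab3gap2 stood highest of them. With an assumed mean of 6 every log2 difference is 14.3% smaller, and with 7.86, which puts the top signal of the table at the 16-bit ceiling of 16, it is 12.3% greater. Where a gene has several probe sets, the one brightest on average stands for it. Outside the controls there were 45037 probe sets with a median of 6.83, and genes whose mean on the arrays other than line 3 reached it are called bright.

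Line 3 stood apart from the other arrays before these genes are considered. Over all genes it correlated with them at Pearson's r of 0.9951 to 0.9955, against 0.9970 to 0.9979 among the others; these are correlations across genes, which are not replicates. Bright genes on chromosome 8 were higher in line 3, with a median log2 difference of 0.27 from the mean of the other arrays, while the median over all bright genes was -0.0098; none of the 7 genes lies on chromosome 8. For the Actb control the 3′ minus 5′ difference was 0.293 in line 3, within the 0.218 to 0.421 of the others. Line 3 lay within the range of the others for 4 of 5 such controls; for the 18S RNA control it stood at 0.526, under the 0.680 to 0.841 of the others. Pluripotency markers fitted the labelled cell type on every array, with summed log2 levels over 10 genes of 122.0 in line 3 and 121.5 to 122.3 on the others. Of 16 primitive and visceral endoderm markers 15 were measured, summing to 102.8 in line 3 and to 101.4 to 102.4 elsewhere. Of 14 fibroblast and feeder markers 13 were measured, summing to 104.2 in line 3 and to 104.6 to 106.2 elsewhere. In RNA of whole cultures, fewer cells that express a gene and less RNA per cell cannot be told apart.

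All 7 genes were at least 2-fold lower in line 3 than on each of the other 3 arrays. Over all genes, 22 of 18193 (0.121%) met this limit with bright levels elsewhere; the 7 were taken from among them, so the share supports nothing. The same count was 0 for the clone, 0 for line 1 and 0 for line 2, and 1 gene was 2-fold higher in line 3 than on every other array. On the other 3 arrays the levels of a bright gene spread over a median range of 0.13, and 95% of bright genes stayed within 0.35.

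**Figure D1:**
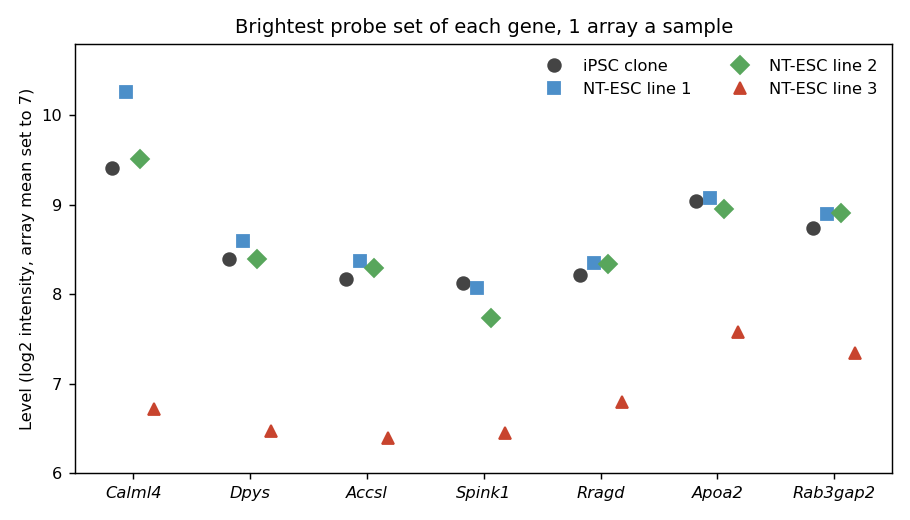
Level of the brightest probe set of each gene (vertical axis, log2 intensity with the array mean set to 7) on the iPSC clone and NT-ESC lines 1, 2 and 3, 1 point an array with no replicate. Line 3 lies under the other 3 arrays for each gene, from 7.58 for Apoa2 to 6.39 for Accsl.

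Calml4 (probe set 1424713_at, chromosome 9) showed the greatest gap of the 7. It stood at 9.42 in the clone, 10.26 in line 1, 9.51 in line 2 and 6.71 in line 3. The 3 other arrays lay far above line 3, with line 1 the highest. The difference of line 3 from their mean was -3.02, or 8.08-fold in measured intensity, with 6.0-fold and 10.5-fold under the lower and the higher assumed mean. Calml4 also varied most among the others: the SD of the 3 was 0.46, and their range of 0.85 exceeded the 0.52 within which 99% of bright genes stayed. It has 1 probe set, so no second one bears on the value.

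The enzyme gene Dpys (1436291_a_at, chromosome 15) stood at 8.39 in the clone, 8.60 in line 1, 8.39 in line 2 and 6.47 in line 3. The difference of line 3 from the mean of the others was -1.99, or 3.97-fold in measured intensity, and the SD of the others was 0.12. Accsl (1436742_a_at, chromosome 2) stood at 8.16, 8.38, 8.30 and 6.39 in the same order. Its difference was -1.89, or 3.70-fold in measured intensity, with an SD of 0.11. Both genes thus formed a tight group of 3 arrays with line 3 alone beneath it.

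Of the genes for secreted proteins, Spink1 (1415938_at, chromosome 18) stood at 8.13 in the clone, 8.07 in line 1, 7.73 in line 2 and 6.44 in line 3. The difference was -1.54, or 2.91-fold, with an SD of 0.21 among the others. Line 2 was the lowest of those 3, and their range of 0.40 was wider than that of 95% of bright genes. Apoa2 (1417950_a_at, chromosome 1) stood at 9.05, 9.08 and 8.95 in the clone, line 1 and line 2, and at 7.58 in line 3. It differed by -1.44, or 2.72-fold, with an SD of 0.07, the smallest of the 7.

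The nutrient-sensing gene Rragd (1434909_at, chromosome 4) stood at 8.21 in the clone, 8.35 in line 1, 8.34 in line 2 and 6.79 in line 3. The difference was -1.51, or 2.84-fold, with an SD of 0.08 among the others. Rab3gap2 (1454915_at, chromosome 1) stood at 8.74, 8.90, 8.91 and 7.34 in the same order, again a difference of -1.51, or 2.84-fold, with an SD of 0.09. For these 2 genes the clone was the lowest of the 3 higher arrays, by 0.13 to 0.17, a gap within the 0.35 that held 95% of bright genes.

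**Figure D2:**
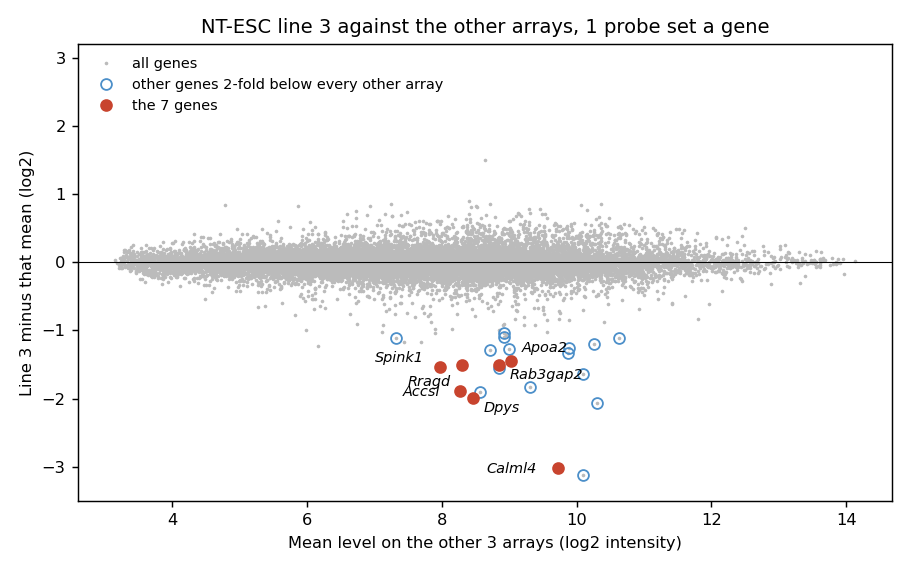
Difference of NT-ESC line 3 from the mean of the other 3 arrays (vertical axis, log2) against that mean (horizontal axis, log2 intensity), 1 point for each of 18193 genes; filled circles are the 7 genes and open circles the other 15 genes at least 2-fold below every other array. The marked genes hang below the cloud on the lower side.

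Only Dpys, Rragd and Rab3gap2 had further probe sets, 5 in all, and these were dim. None of the 5 was above 6.39 on any array, so all lay in the lower part of the signal range. For Dpys, 1425688_a_at ran from 5.51 to 5.67 with 5.58 in line 3, and 1425689_at ran from 6.31 to 6.39 with 6.34 in line 3. Neither followed the bright probe set. For Rragd, 1431164_at stood at 5.16, 5.23 and 5.18 in the clone and lines 1 and 2 and at 4.88 in line 3, a difference of -0.31. The third Rragd probe set, 1440555_at, stood at 5.52 in line 3 and between 5.47 and 5.56 elsewhere. For Rab3gap2, 1436272_at stood at 5.93, 5.97 and 5.92 and at 5.59 in line 3, a difference of -0.35. Of the 5, 2 were therefore lowest in line 3 and 3 were not; over all probe sets 26.2% were lowest there. When all probe sets of a gene were averaged, 4 of the 7 genes stayed 2-fold below every other array, and Dpys, Rragd and Rab3gap2 did not.

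**Figure D3:**
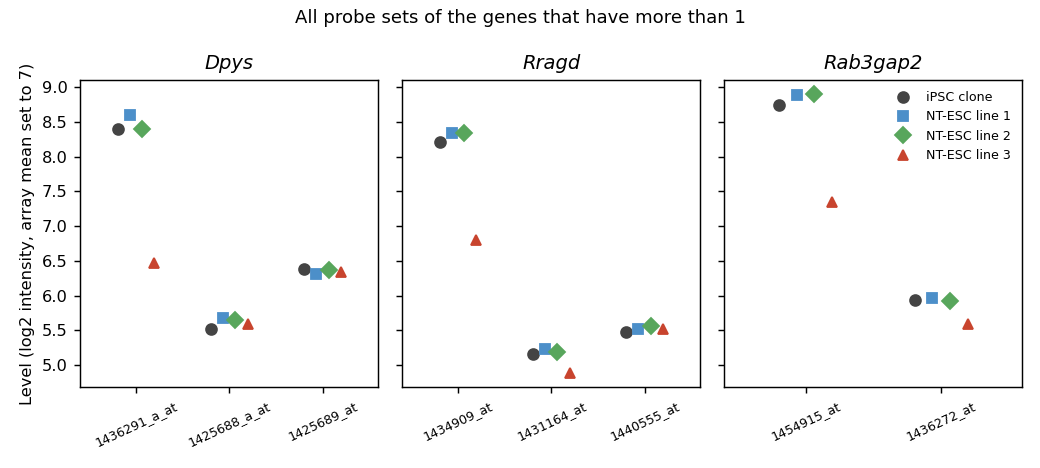
Level (vertical axis, log2 intensity with the array mean set to 7) of every probe set of Dpys, Rragd and Rab3gap2 on the 4 arrays, 1 point an array. The separation of line 3 shows in the bright probe set of each gene, is small in 1431164_at and 1436272_at and is lacking in the other 3 dim ones.

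To see whether a gene was near the background or only reduced, the levels were set beside 53 probe sets of 27 genes that belong to tissues such as liver, pancreas, muscle and retina. The table holds no detection calls, and each probe set has its own background, so this places a level only roughly. On the array of line 3 these reference probe sets had a median of 5.87, and 90% lay under 7.34; the highest stood at 8.45. Calml4, Dpys, Accsl, Spink1 and Rragd, at 6.39 to 6.79 in line 3, lay well inside this range, and 12 to 18 of the 53 were at or above them. Apoa2 at 7.58 and Rab3gap2 at 7.34 lay near its upper end, with 5 and 6 at or above them. On the other 3 arrays, by their means, 0 of the 53 reached Calml4, Dpys, Apoa2 or Rab3gap2 and 2 reached Accsl, Spink1 or Rragd. The first 5 genes were thus at levels in line 3 that genes of other tissues also had there. Apoa2 and Rab3gap2 were reduced to 36.7% and 35.2% of their mean intensity elsewhere, near the edge of that range.

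**Figure D4:**
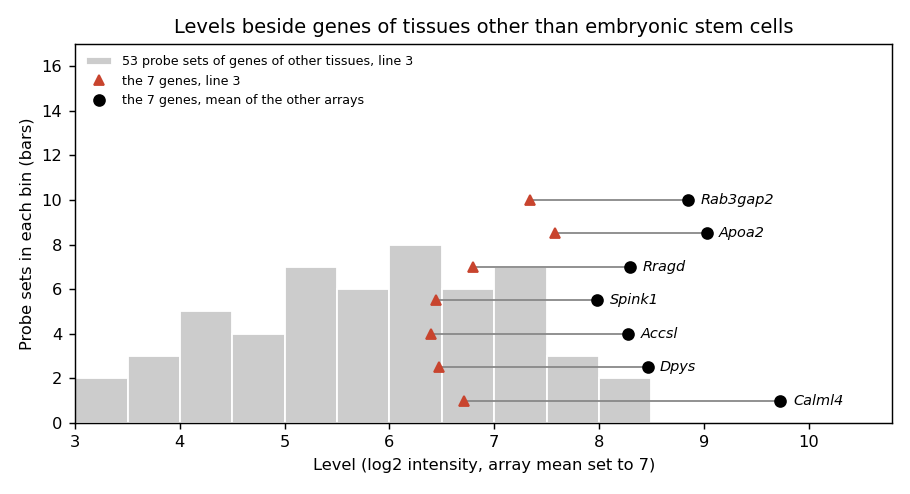
Levels (horizontal axis, log2 intensity with the array mean set to 7) of the 7 genes in NT-ESC line 3 (triangles) and as the mean of the other 3 arrays (circles), over a histogram of the 53 reference probe sets on the array of line 3 (vertical axis, number in each bin). Calml4, Dpys, Accsl, Spink1 and Rragd move in among the bars, above the reference median of 5.87, and Apoa2 and Rab3gap2 toward their right edge.

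Among lines 1 and 2 and the clone, which the choice of genes did not set against each other, none of the 12 probe sets was called between the 2 lines and the clone (limma, Benjamini-Hochberg adjusted p from 0.71 to 0.971). Over all probe sets 0 of 45037 (0%) were called, while 2888 had an unadjusted p under 0.05. Calml4 differed most, by 0.47 ± 0.37 (SE), carried by line 1 alone: line 1 lay 0.85 above the clone and line 2 lay 0.09 above it. Spink1 differed by -0.23 ± 0.18, Accsl by 0.17 ± 0.08, Rab3gap2 by 0.16 ± 0.07, Rragd by 0.13 ± 0.07, Dpys by 0.10 ± 0.12 and Apoa2 by -0.03 ± 0.09. With 1 array of the clone and 1 residual degree of freedom, a miss here does not show that the levels are alike. The series was made to set all 3 lines against the clone, and there the bright probe sets differed by -0.71 for Spink1 to -0.36 for Rab3gap2 (SE from 0.57 to 1.27). Since line 3 entered both this comparison and the choice of the genes, these values are a description. By limma 0 of all probe sets (0%) were called, with 2609 at an unadjusted p under 0.05.

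The 7 genes lie on 6 autosomes, with Apoa2 and Rab3gap2 both on chromosome 1, which held 4 of the 22 genes at the 2-fold limit and 5.86% of measured genes. Their neighbours had smaller differences, which the choice of the 7 by their drop makes likely. Of the 42 measured genes that are the nearest 3 on either side in RefSeq gene order, 0 were 2-fold lower in line 3. Over all genes 22 of 18193 (0.121%) met this limit, so 0 of 42 does not set the neighbours apart. Their differences ran from -0.38 to 0.18 with a median of -0.05, and 18 of the 42 were lowest in line 3, against 28.8% of all genes. The lowest was Cln6, a lysosomal storage disease gene next to Calml4, at 9.03, 9.29 and 9.38 in the clone and lines 1 and 2 and 8.85 in line 3. Around Accsl, 5 of 6 neighbours were lowest in line 3, among them the demethylase gene Alkbh3 at -0.35 and Ext2, a heparan sulfate polymerase gene, at -0.21. Accs, the next gene and a relative of Accsl, stood at 7.78 in line 3 and at 7.82 to 7.85 elsewhere. Around Rragd, Lyrm2, Ankrd6 and Ube2j1 differed by 0.15, 0.16 and 0.13. Tomm40l and Fcer1g, on either side of Apoa2, both differed by -0.10. Mark1 and Iars2, on either side of Rab3gap2, differed by -0.11 and 0.01.

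**Figure D5:**
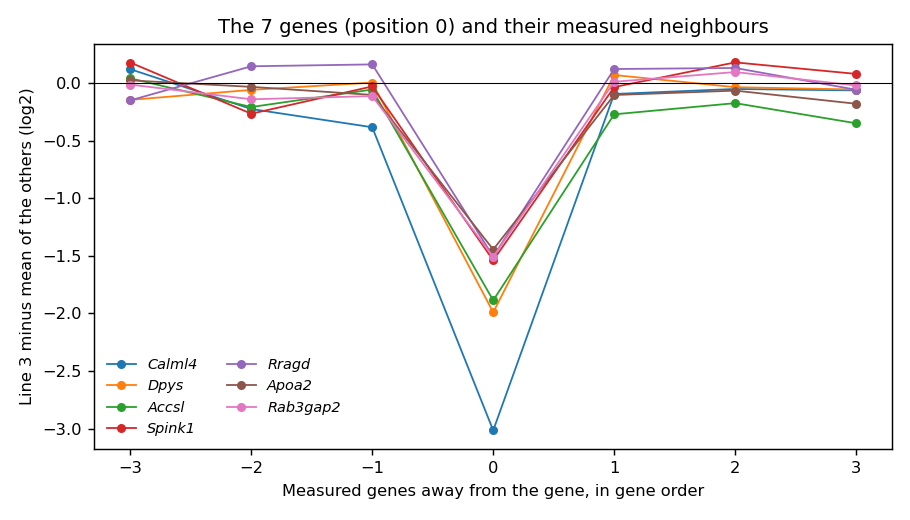
Difference of NT-ESC line 3 from the mean of the other 3 arrays (vertical axis, log2) for each of the 7 genes (position 0) and its 3 nearest measured genes on either side (horizontal axis, order along the chromosome, not distance); lines join the genes of 1 neighbourhood. Position 0 lies between -3.02 and -1.44 and every neighbour between -0.38 and 0.18.

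Genes of the same pathways were taken from fixed lists. For them, line 3 was tested against the other 3 arrays by limma, in a fit added after the data were seen. The arm of line 3 is 1 array, so the spread in this fit comes from the other 3 alone and line 3 is assumed to vary like them; an exact test of 1 array against 3 cannot go below p = 0.25. In it 47 of 45037 probe sets (0.104%) were called, 37 of them lower (0.0822%), and 0 when line 1, line 2 or the clone was left out. No probe set of any list passed (smallest Benjamini-Hochberg adjusted p = 0.105). The next largest shifts beside Rragd were in the MiT/TFE transcription factors, which are known to activate lysosomal genes and Rragd itself. Mitf stood at 7.64 in the clone, 7.79 in line 1, 8.03 in line 2 and 7.07 in line 3, a difference of -0.75 (limma, adjusted p = 0.167), while its second probe set differed by -0.26 (adjusted p = 0.673). The X-linked Tfe3 stood at 9.81, 9.85, 9.76 and 9.26 in the same order, a difference of -0.55 (adjusted p = 0.105). Tfeb stood at 9.26, 9.42, 9.29 and 8.89, a difference of -0.43 (adjusted p = 0.208). Line 3 was thus the lowest array for all 3 factors. CACGTG, a site of TFE, MITF and USF factors, was absent from the Rragd window shown above and present in that of Rab3gap2. A link between these factors and the level of Rragd was not tested. Sesn1, a leucine sensor and p53 target, differed by 0.37. The other Rag GTPases differed less, with 0.15 for Rraga and -0.14 for Rragc. Of the 24 measured genes of Rag and lysosomal amino acid sensing, all bright, 14 were lowest in line 3, against 31.4% of all bright genes, and their median difference was -0.08.

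As background for the counts that follow, 28.8% of all genes and 31.4% of bright genes were lowest in line 3. The share of all genes that was highest there was not counted. Of the Rab3 and Rab18 cycle, 13 genes were measured, of which 2 were lowest and 6 highest in line 3, with a median of 0.02. Rab3gap1, the catalytic partner of Rab3gap2, stood at 7.96, 7.88 and 7.95 in the clone and lines 1 and 2 and at 8.16 in line 3, a difference of 0.23, opposite in sign to that of Rab3gap2. Rab18 differed by 0.002 and Tbc1d20 by -0.04. Of 14 apolipoproteins 7 were lowest in line 3, with a median of -0.09. Apoe, a lipid carrier of many cell types, stood at 11.10, 11.25, 11.27 and 10.66, a difference of -0.55 (limma, Benjamini-Hochberg adjusted p = 0.155), while Apoa1 differed by 0.05. Of 11 measured genes of pyrimidine breakdown and Dpys relatives 3 were lowest, with a median of -0.05. Dpyd, which makes the substrate of Dpys, was dim on every array at 4.07 to 4.30, and Upb1, the next enzyme, differed by 0.06. Of 9 aminotransferases and Accsl relatives 3 were lowest and 4 highest, led by Got2 at 0.35 and Got1 at 0.34; the median was 0.01. Of 11 Kazal inhibitors and pancreatic proteases 2 were lowest, and the differences of the 11 ran from -0.18 to 0.10. Only 3 of the 11 were bright, and a gene near background can show little drop. Of 6 calmodulins and relatives 2 had a probe set of a single gene, Calm4 and Calml3. Both differed by 0.11, and Calm4 alone was bright. Over all genes the median was -0.0059.

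Markers of other cell types had smaller differences than the 7 genes, which were chosen for their drop. Among the fibroblast and feeder genes Tagln stood at 9.82, 10.22, 10.23 and 9.40 and Acta2 at 10.18, 10.40, 10.28 and 9.80, in the clone and lines 1, 2 and 3. These 2 smooth muscle genes were the lowest in line 3, by -0.69 and -0.49 from the mean of the others, while Pdgfrb differed by 0.22 and Lum by 0.20. The endoderm genes Cubn and Rbp4 differed by 0.52 and 0.42, and Dab2 and Gata6 by 0.30 and 0.29, while Afp differed by -0.28 and Hnf4a by -0.16. Of the 15 measured endoderm genes 5 were lowest and 5 highest in line 3, with a median difference of 0.01, and only 6 were bright. Over all genes 28.8% were lowest in line 3. Cubn, Rbp4, Gata6 and Afp, like Pdgfrb and Lum, stayed under the median level of 6.83 on every array, in the lower part of the signal range. The part of either marker list in the 7 drops was not tested. None of these passed limma's test (Benjamini-Hochberg adjusted p of at least 0.11).

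Further genes shared the pattern. Of the 22 genes at the limit 18 are autosomal, so 11 autosomal genes beyond the 7 met it as well. By Euclidean distance over the 4 arrays after centring each gene on its mean, the 5 bright genes nearest to the average profile of the 7 were Lncenc1 (distance 0.11), Pdzd4 (0.13), Septin1 (0.25), Klhl13 (0.34) and Morc1 (0.47). The 7 themselves lay at 0.11 for Accsl to 1.12 for Calml4 from it. Lncenc1, a long noncoding RNA of naive ESCs, stood at 9.24, 9.37, 9.31 and 7.48. The X-linked Pdzd4 stood at 8.57, 8.74, 8.41 and 6.66. Septin1, a cytoskeletal GTPase, stood at 8.76, 8.98, 8.82 and 7.30. A profile over 4 arrays with 1 low value leaves little room for genes to differ, so the distances mostly rank the size of the drop. Of all 22 genes at the limit, the X-linked Gm364 had the largest drop, at -3.12 from the mean of the other arrays. Other genes at the limit included Manba, a lysosomal mannosidase, at -1.26 by this measure, and Sfmbt2, an imprinted Polycomb-group gene, at -1.28. The Nodal inhibitor Lefty1, also among them, stood at -1.65. Just inside the limit, by the gap to the lowest other array, were Plekha4 at -1.02 and Ttn at -1.01. Just outside were Cd68 at -0.96 and Aim2 at -0.95.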

How the data were processed

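Biotin-labelled RNA of 4 samples was measured on 1 array each. Per the labels, groups were the iPSC clone (1 array) and the NT-ESC lines (3). The deposited table gave, in log2, a ratio whose mean is 1 on each array and which ran from 0.422 to 2.03; this is the form of a log intensity over the array mean of log intensities. The software behind them was not given in the sources used here. Each ratio was multiplied by 7. Of 45101 rows, 64 controls were left out. Platform annotation named 1 gene for 34958 probe sets and several for 932, which were not used; none of the latter named a member. Symbols and gene order came from RefSeq (GRCm38.p6). Linear models with moderated variances were fitted by limma (version 3.58.1, under R 4.3.3; two-sided, called at a Benjamini-Hochberg adjusted p under 0.05) over 45037 probe sets, and the code was tested on simulated data. SEs come from the moderated variances, which combine the spread between lines with a variance drawn from all probe sets. The lines may not be independent derivations. The members and lists were chosen with earlier results of these data known. Named genes were the members, up to 10 further genes at the 2-fold limit, the 5 nearest profiles, 3 neighbours a side, and up to 4 genes a list; Rraga, Rragc, Rab18, Tbc1d20, Rab3gap1, Apoa1, Dpyd, Upb1 and Accs (as partners), and Afp and Hnf4a, were named outside the rule with their values seen.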

Additional observations from a re-analysis of the deposited data

How the results depend on the processing

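All 7 genes kept a 2-fold gap below every other array under both other assumed means, after quantile normalization, with no limit on brightness, and without line 1, line 2 or the clone. The genes were chosen for this gap. Leaving out an array, lifting the limit on brightness or taking the higher assumed mean cannot narrow it, so those settings could not fail. With the mean of the probe sets of a gene 4 kept it, and the differences were then -0.68 for Dpys, -0.61 for Rragd and -0.93 for Rab3gap2, whose further probe sets are dim. Of 49 differences of single genes under 7 alternatives, 49 were below 0 and 14 moved by more than 1 SD, 11 with the assumed mean and 3 with the mean of probe sets. The shared sign follows largely from the choice of the genes. The count of genes 2-fold below every other array, 22, was 13 with an assumed mean of 6. The added limma fit of line 3 called 47 probe sets, but 0 with the deposited values taken as given, for which the cause was not tested, and 0 without line 1, line 2 or the clone, which leaves 1 residual degree of freedom. Both fits against the clone called 0 under each alternative that could be run; lines 1 and 2 could not be left out in turn of the fit of those lines, since no residual degree of freedom remains. The number of arrays limits the precision.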
